A study of Mus musculus with 12 samples.

Results

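The 10 genes Egr1, Egr2, Egr3, Nr4a1, Fos, Jun, Junb, Myc, Klf6 and Rasgef1b of the immediate early response to B cell activation were followed in B cells of the Peyer's patches (PP), the lymphoid follicles of the small intestine. They were taken from the deposited expression table by gene symbol and make up 10 of its 36175 genes. Earlier results of the comparison between stroke and sham on these same mice were in view when the genes were chosen, so their differences between the groups are given as a description, with no test. Of all genes, 12590 reached 1 or more in each of the mice and were tested, and all 10 immediate early genes were among them.

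The libraries came from 6 sham controls and 6 stroke mice, each library from a separate mouse, and were prepared 18 h after surgery from male C57BL/6JHsd mice of 10 to 12 weeks. Stroke mice, labelled as brain injury, had a filament in the middle cerebral artery for 1 h, followed by reperfusion. In sham controls the filament was placed in the common carotid artery and taken out at once, and both groups received the analgesics buprenorphine and carprofen. B cells were isolated with magnetic beads, and according to the methods some intestinal epithelial and endothelial cells remained and a further purification with CD45 beads followed. No genetic modification is given for the mice of either group.

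Immediate early genes are transcribed within minutes of a stimulus, before any new protein is needed, by factors that already sit in the cell. In B cells, engagement of the antigen receptor raises calcium and activates the RAS and ERK kinase cascade, which act through NFAT, serum response factor, CREB and ETS factors on the promoters of these genes. The products are mostly transcription factors, their mRNAs are short-lived, and AU-rich elements in the 3′ UTR take part in their decay. Peyer's patch B cells meet gut antigens continuously, and Egr and Nr4a genes are widely used as readouts of recent antigen receptor signalling.

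The promoters are shown here so that the short motifs in them can be read. RefSeq promoter windows (GRCm38.p6, 250 bases before to 50 bases after the transcription start, 300 in all) were at hand for 7 of the 10 genes, Egr2, Nr4a1, Fos, Jun, Junb, Klf6 and Rasgef1b, and 1 window of each is printed 5′ to 3′ on the strand of the gene. Capitals mark the CArG box of serum response factor in Egr2, the EGR motif GCGNGGGCG in Nr4a1 (on the opposite strand) and in Rasgef1b, the Jun and ATF2 motif TGACATCA in Jun and Klf6, and TATAAA in Fos and Junb.
Egr2, chr10:67537619-67537918, plus strand: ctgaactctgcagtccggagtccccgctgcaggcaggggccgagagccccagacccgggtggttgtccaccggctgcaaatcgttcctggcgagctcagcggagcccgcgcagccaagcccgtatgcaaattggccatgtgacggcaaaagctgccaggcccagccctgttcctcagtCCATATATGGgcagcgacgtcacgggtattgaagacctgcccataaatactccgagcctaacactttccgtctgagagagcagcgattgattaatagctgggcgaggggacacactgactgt
Nr4a1, chr15:101266596-101266895, plus strand: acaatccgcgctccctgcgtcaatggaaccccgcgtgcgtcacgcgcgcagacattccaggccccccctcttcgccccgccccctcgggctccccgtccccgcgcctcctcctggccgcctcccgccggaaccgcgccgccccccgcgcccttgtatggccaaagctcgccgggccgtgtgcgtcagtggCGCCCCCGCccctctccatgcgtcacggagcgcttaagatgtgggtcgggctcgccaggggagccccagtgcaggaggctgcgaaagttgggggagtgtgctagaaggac
Fos, chr12:85473640-85473939, plus strand: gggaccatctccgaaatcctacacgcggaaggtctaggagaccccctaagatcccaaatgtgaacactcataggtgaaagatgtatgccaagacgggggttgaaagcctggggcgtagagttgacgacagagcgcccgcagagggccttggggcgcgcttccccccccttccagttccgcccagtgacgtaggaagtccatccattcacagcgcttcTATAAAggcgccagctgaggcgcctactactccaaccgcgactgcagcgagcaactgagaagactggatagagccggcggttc
Jun, chr4:95052173-95052472, minus strand: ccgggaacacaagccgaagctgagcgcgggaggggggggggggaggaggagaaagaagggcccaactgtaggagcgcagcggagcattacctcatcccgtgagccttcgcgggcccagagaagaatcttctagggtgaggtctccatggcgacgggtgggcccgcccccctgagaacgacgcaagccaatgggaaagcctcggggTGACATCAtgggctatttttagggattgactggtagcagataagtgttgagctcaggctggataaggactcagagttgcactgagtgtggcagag
Junb, chr8:84978699-84978998, minus strand: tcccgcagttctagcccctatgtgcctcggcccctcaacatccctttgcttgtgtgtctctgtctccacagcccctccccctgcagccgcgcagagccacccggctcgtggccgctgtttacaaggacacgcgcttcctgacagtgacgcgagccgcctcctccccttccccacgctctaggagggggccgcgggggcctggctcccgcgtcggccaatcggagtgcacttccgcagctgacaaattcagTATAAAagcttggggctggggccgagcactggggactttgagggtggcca
Klf6, chr13:5861239-5861538, plus strand: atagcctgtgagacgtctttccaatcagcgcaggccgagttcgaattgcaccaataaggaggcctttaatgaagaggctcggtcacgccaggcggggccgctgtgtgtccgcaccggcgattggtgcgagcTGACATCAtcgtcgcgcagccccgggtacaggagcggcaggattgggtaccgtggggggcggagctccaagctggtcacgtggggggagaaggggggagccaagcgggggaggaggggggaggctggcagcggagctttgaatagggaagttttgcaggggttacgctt
Rasgef1b, chr5:99252878-99253177, minus strand: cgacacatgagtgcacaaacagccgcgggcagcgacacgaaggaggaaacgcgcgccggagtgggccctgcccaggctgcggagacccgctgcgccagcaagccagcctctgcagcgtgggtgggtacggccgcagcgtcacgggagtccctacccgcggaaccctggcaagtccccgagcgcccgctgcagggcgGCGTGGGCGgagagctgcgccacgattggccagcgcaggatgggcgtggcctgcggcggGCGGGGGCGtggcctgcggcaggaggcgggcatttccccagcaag

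Motifs were searched as exact letters on both strands, and beside each count of genes stands the share of all 27025 genes that hold the motif in at least 1 of their windows (32851 windows of the same length). The EGR motif was found in the windows of Nr4a1 and Rasgef1b, 2 of 7 genes, and in 6.27% of all genes. Rasgef1b held it at 2 places, and the first of them begins 54 bases before the start and overlaps the shorter motif GGGCGG. TGACATCA was found in Jun, 45 bases before the start, and in Klf6, 119 bases before it, which is 2 of 7 genes beside 4.18% of all genes. The CArG box, with 6 bases of A or T between CC and GG, was found in 1 of 7 genes, Egr2, and in 1.81% of all genes. Of the 5 overlapping or neighbouring Egr2 windows 4 held a match. Overlapping windows among these share the same CCATATATGG, and a neighbouring window holds CCTTTTTTGG. TATAAA occurred in Fos and Junb and in 15.7% of all genes, CACGTG in Egr2 and Klf6 and in 8.09%, and GGGCGG, the motif of SP and KLF factors, in 6 of 7 genes and in 38.2%. TGACGTCA, TGANTCA and CCGGAAG, bound by CREB, AP-1 and ETS factors, were in 0 of 7 genes, and in 2.03%, 8.97% and 9.93% of all genes. A match is a description of letters in these windows and no evidence of binding.

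The mRNAs share a feature at their other end. The pentamer ATTTA, the core of AU-rich elements, was present in the 3′ UTR of all 10 genes, compared with 72.5% of 10889 tested genes with a 3′ UTR of at least 100 bases in GENCODE M21. Its density was above the median of 1.41 per kb in each of the 10 genes and lay at percentile 95.6 in Nr4a1, 94.0 in Fos, 91.2 in Myc and 90.3 in Junb, whereas Egr1 was at percentile 55.7 and Rasgef1b at 59.5. Only Fos held the nonamer TTATTTATT, which 8.83% of the genes hold. The site begins at base 655 of a 3′ UTR of 815 bases and is printed with the nonamer in capitals, because it is the only match of this longer motif in the 10 genes.
Fos 3′ UTR site: tgttttcaatTTATTTATTaagatggatt

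The table gives normalized TPM, a level per transcript length, in columns that sum to between 559570 and 1404340 rather than to a common total, with no record of the sequencing depth. Sham control 6 had the lowest total and the highest level of Thy1, a T cell marker. Thy1 was 404 in this mouse, beside 79.3 to 137 in the other sham controls and 96.8 to 285 in stroke mice. In stroke mouse 6, 30060 genes were above 0, beside 20626 to 23947 in the other 11 mice. Summed B cell markers were 1805 to 2919 in the 12 mice, and summed neutrophil markers were 4.91 to 10.3. Other marker sums were higher than those of neutrophils, at 35.5 to 1820 for intestinal epithelial, 307 to 1449 for plasma cell and 191 to 508 for T cell markers. In sham control 1 epithelial markers summed to 1820 beside 2360 for B cell markers. Tested with limma on log2(value + 0.5), 557 genes were higher and 213 lower in stroke mice at an unadjusted p under 0.05, which is 4.42% and 1.69% of the genes tested and 6.12% in all, and 0 genes passed an adjusted p of 0.05, the smallest being 0.468. Higher genes made up 72.3% of these calls, 83.5% after each mouse was rescaled to the same total, 56.3% after median-of-ratios scaling and 53.6% after quantile normalization. Without sham control 6 the calls were 936 higher and 1162 lower. All differences are for a bulk population, in which fewer cells of a type and less RNA per cell cannot be told apart.

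Averaged over the 12 mice, the order from high to low was Rasgef1b, Egr3, Junb, Myc, Nr4a1, Klf6, Jun, Fos, Egr1 and Egr2, from percentile 80.3 of all tested genes for Rasgef1b to percentile 7.68 for Egr2. By group means, Egr3 was second in sham controls, at 46.8, but below Junb at 33.3 and Myc at 31.3 in stroke mice, at 30.0, and Fos was above Egr1 in sham controls and slightly below it in stroke mice (12.4 beside 12.7). Between neighbours of the pooled order, Rasgef1b was above Egr3 in 12 of 12 mice and Egr1 above Egr2 in 12 of 12. Single mice departed from it also at the ends, since Rasgef1b was below Myc and Junb in stroke mouse 3, and Egr2 above Fos in stroke mice 3 and 4. The other neighbours did not separate beyond the spread between mice. Egr3 was above Junb in 5 mice, 4 sham controls and 1 stroke mouse, Junb above Myc in 9, Myc above Nr4a1 in 8, Nr4a1 above Klf6 in 7, Klf6 above Jun in 5, Jun above Fos in 10 and Fos above Egr1 in 6.

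**Figure D1:**
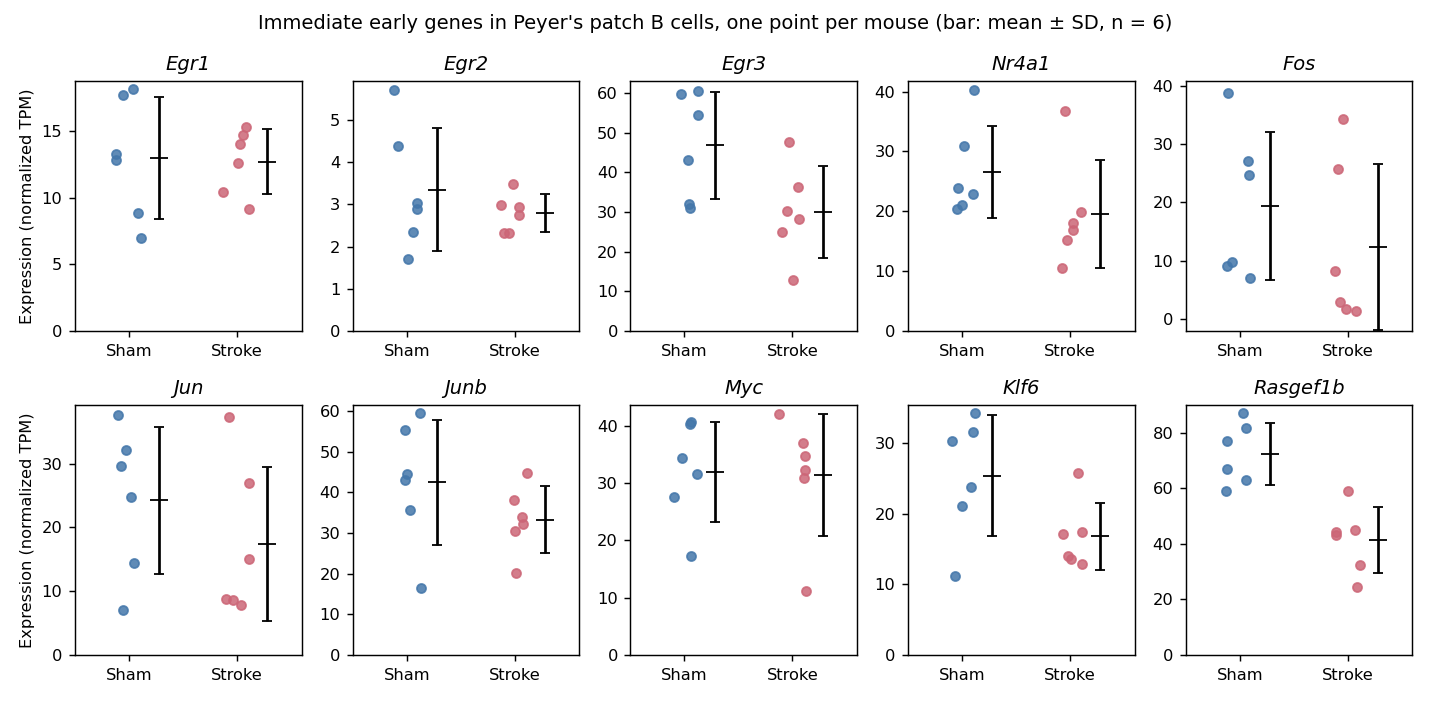
Expression (normalized TPM, linear axes that differ between panels) of the 10 immediate early genes in PP B cells of 6 sham controls and 6 stroke mice. Each point is a mouse and the bar gives the mean ± SD. In Rasgef1b, 5 of 6 stroke mice lie below the lowest sham control, and in each of the 10 genes the groups overlap.

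Between the groups, 9 of the 10 genes had a lower mean log2 level in stroke mice, Egr1 being the exception, compared with 48.6% of all tested genes below 0. This direction was known when the genes were chosen. The log2 fold changes ran from -1.26 in Fos to 0.02 in Egr1, with a median of -0.51 over the 10 genes and of 0.01 over all genes tested. Values of the 2 groups overlapped in all 10 genes, and of all tested genes 0.0874% lay wholly below and 0.349% wholly above the sham controls in stroke mice. Without sham control 6 the median of the 10 genes was -0.60, and without stroke mouse 5 it was -0.35. Rescaling to a common total moved the median log2 fold change of all genes by 0.12, to 0.13, and the values relative to that median were then -1.27 for Fos, -0.84 for Rasgef1b and 0.02 for Egr1, beside -1.27, -0.85 and 0.02 without rescaling.

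Rasgef1b, which encodes a guanine nucleotide exchange factor for small GTPases of the RAS family and is induced by immune stimuli, had the highest levels. It lies on chromosome 5 at 99217426 to 99729065 of GRCm38, minus strand (ENSMUSG00000089809), and several noncoding genes lie within it. Its level was 58.9 at the lowest, 72.0 at the median and 87.0 at the highest in sham controls, and 24.4, 43.7 and 59.0 in stroke mice. Only the highest stroke mouse, number 2, reached the range of the sham controls, at 59.0 beside 58.9 in the lowest of them. The means were 72.4 ± 11.2 (SD, n = 6) and 41.3 ± 11.9, and the log2 fold change was -0.84 (SE 0.19). When each mouse was left out in turn it stayed between -0.95 and -0.70.

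Of the EGR zinc finger factors, which are induced through serum response factor and NFAT and bind GC-rich sites, Egr3 had the lowest stroke values relative to sham and Egr1 was close to equal in the groups. Egr3 (chromosome 14, 70077203 to 70082614, plus strand, ENSMUSG00000033730) ranged from 31.0 to 60.6 with a median of 48.8 in sham controls and from 12.9 to 47.7 with a median of 29.2 in stroke mice. The ranges overlapped, but 4 of 6 stroke mice were below the lowest sham control. The mean was 46.8 ± 13.4 in sham and 30.0 ± 11.6 in stroke (SD, n = 6), a log2 fold change of -0.68 (SE 0.28) that stayed between -0.83 and -0.46 when single mice were left out.

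Egr1 (chromosome 18, 34859823 to 34864984, plus strand, ENSMUSG00000038418), the founding member of the family, had values of 6.96, 13.1 and 18.2 as lowest, median and highest in sham controls and of 9.18, 13.3 and 15.3 in stroke mice. All 6 stroke mice lay within the range of the sham controls. Its log2 fold change of 0.02 (SE 0.23) turned negative in 7 of 24 alternative analyses and was -0.13 without sham control 6. For Egr2 (chromosome 10, 67535475 to 67542188, plus strand, ENSMUSG00000037868), which restrains lymphocyte activation together with Egr3, sham controls ranged from 1.71 to 5.72 around a median of 2.97, and stroke mice from 2.32 to 3.48 around 2.83. All stroke mice again lay within the sham range, and the log2 fold change was -0.15 (SE 0.22), which understates a change at so low a level because of the added 0.5. Without sham control 2, the mouse with the highest Egr2, it was slightly above 0, and without sham control 6 it was -0.29.

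Nr4a1, also known as Nur77, is an orphan nuclear receptor whose transcript follows the strength of antigen receptor signalling. The gene (chromosome 15, 101254269 to 101274795, plus strand, ENSMUSG00000023034) had a lowest value of 20.3, a median of 23.4 and a highest value of 40.3 in sham controls, against 10.6, 17.5 and 36.7 in stroke mice. In stroke, 5 of 6 mice were below the lowest sham control, while stroke mouse 2 was above all sham controls except number 3. The means of 26.6 ± 7.71 and 19.6 ± 8.96 (SD, n = 6) gave a log2 fold change of -0.49 (SE 0.26), with a range of -0.69 to -0.34 when mice were left out one at a time. The related genes Nr4a2 and Nr4a3 were below 1 in some mice and were not tested.

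AP-1 is a dimer of FOS and JUN proteins, and its 3 members here differed in how far single mice departed from their group. Fos (chromosome 12, 85473890 to 85477273, plus strand, ENSMUSG00000021250) had a lowest, median and highest value of 7.09, 17.2 and 38.8 in sham controls and of 1.33, 5.57 and 34.3 in stroke mice. Stroke mice 1 and 2 were as high as the higher sham controls, and 3 of the other 4 stroke mice were below every sham control. The log2 fold change of -1.26 was the most negative of the 10 and had an SE of 0.74. Its within-group SD of 1.47 on the log2 scale ranked 57th of the 12590 tested genes, whose median was 0.31.

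Jun (chromosome 4, 95049034 to 95052222, minus strand, ENSMUSG00000052684, overlapped by the antisense gene Junos) showed the same high mice. Its values were 7.04 at the lowest, 27.2 at the median and 37.6 at the highest in sham controls, and 7.88, 11.9 and 37.3 in stroke mice, so that the stroke range lay inside the sham range. The log2 fold change was -0.54 (SE 0.46), with a range of -0.84, without sham control 5, to -0.37, without stroke mouse 5, and the within-group SD of 0.90 ranked 372nd. Junb (chromosome 8, 84974484 to 84978718, minus strand, ENSMUSG00000052837), a partner of FOS with weaker activating ability than JUN, overlaps Prdx2 on the other strand, so reads of the shared stretch may be uncertain. Junb ranged from 16.5 to 59.4 with a median of 43.9 in sham and from 20.1 to 44.8 with a median of 33.1 in stroke. The lowest of the 12 mice was sham control 6, and the log2 fold change of -0.28 (SE 0.28) was -0.53 without it and -0.15 without stroke mouse 5.

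Myc (chromosome 15, 61985391 to 61990374, plus strand, ENSMUSG00000022346), the factor that drives growth and ribosome production in activated B cells, was close to equal in the groups. Sham controls had 17.3, 32.9 and 40.7 as lowest, median and highest value, and stroke mice 11.1, 33.4 and 42.1. A single stroke mouse, number 5, was below the lowest sham control, and the log2 fold change of -0.08 (SE 0.30) was 0.19 without it and -0.24 without sham control 6. It was 0.04 after rescaling to a common total. Klf6 (chromosome 13, 5861482 to 5870394, plus strand, ENSMUSG00000000078), a zinc finger factor that binds GC-rich promoters, had 11.2, 27.0 and 34.2 in sham controls and 12.8, 15.5 and 25.8 in stroke mice. Sham control 6 was the lowest of all mice, and 5 of 6 stroke mice were below every other sham control. The log2 fold change of Klf6 was -0.54 (SE 0.25), and -0.75 without that sham control.

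**Figure D2:**
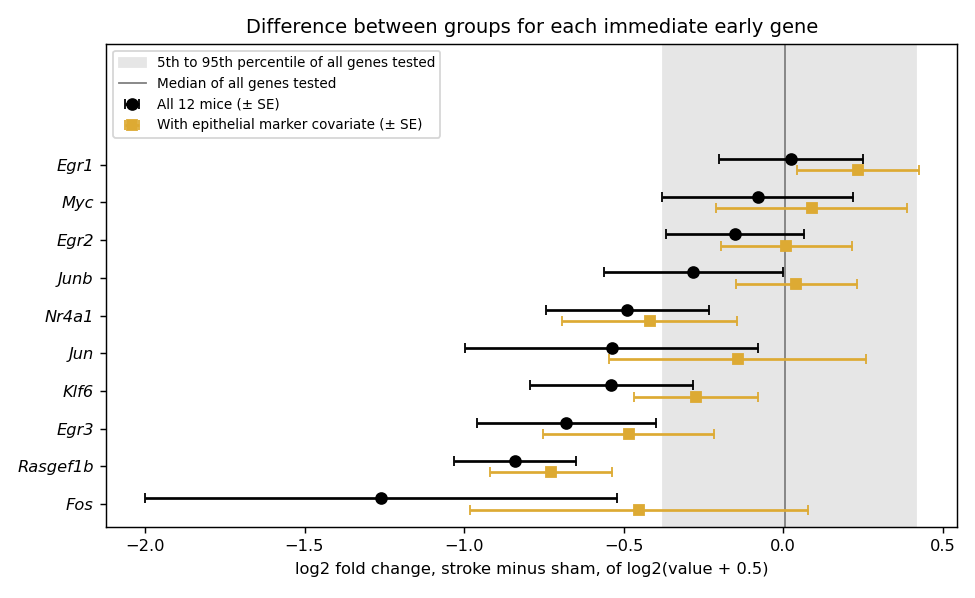
Log2 fold change (stroke minus sham, of log2(value + 0.5)) of each immediate early gene with its SE, from all 12 mice (black circles) and with the mean level of intestinal epithelial markers as a covariate (yellow squares). The grey band spans the 5th to 95th percentile of all genes tested, -0.38 to 0.42, and the grey line is their median. With the covariate, Rasgef1b moved from -0.84 to -0.73 and Fos from -1.26 to -0.45.

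Transcripts of other cells also varied between the libraries. Summed levels of 12 intestinal epithelial markers were 43.0 to 1820 in sham controls, with a median of 448, and 35.5 to 888 in stroke mice, with a median of 193, and the most abundant was the fatty acid binding protein Fabp2. Of these markers, 6 passed the filter, all 6 had a negative log2 fold change and none of the 12 was at 0 in all mice, although the transcription factors Cdx1 and Cdx2 were at 0 in 1 mouse each. Summed plasma cell markers were 307 to 1449 in sham and 378 to 1073 in stroke mice, and summed genes of handling and heat shock 723 to 2934 and 1366 to 2145. With the epithelial markers as a covariate, an analysis chosen after seeing the data, the log2 fold change was -0.73 (SE 0.19) for Rasgef1b, -0.48 (SE 0.27) for Egr3, -0.42 (SE 0.27) for Nr4a1, -0.27 (SE 0.19) for Klf6 and -0.45 (SE 0.53) for Fos. It was -0.14 for Jun and 0.04 for Junb, 0.01 for Egr2, 0.09 for Myc and 0.23 for Egr1. Summed T cell markers were 191 to 232 in 5 sham controls, 508 in sham control 6 and 232 to 379 in stroke mice, and Thy1 made up 404 of the 508. Without Thy1 the other 9 T cell markers summed to 81.4 to 148 in sham controls, with 105 in number 6, and to 67.3 to 176 in stroke mice, and the groups overlapped. The part of the plasma cell, heat shock and T cell transcripts in the differences was not tested.

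Across mice of one group, the mean log2 level of the 10 genes followed these transcripts. After the group means were subtracted, it correlated over the 12 mice with the heat shock genes at r = 0.73 (rho = 0.84), with the plasma cell markers at r = 0.83 (rho = 0.76) and with the epithelial markers at r = 0.78 (rho = 0.76). Without the 2 mice farthest from the median of each marker mean, r was 0.77, 0.63 and 0.65. The relation to B cell markers, r = 0.63, fell to 0.20 when sham control 6 and stroke mouse 5 were left out. The T cell markers were at r = 0.57 (rho = 0.54) and the monocyte and macrophage markers at r = 0.58 (rho = 0.43), both 0.39 without the 2 farthest mice, and the germinal centre, neutrophil, endothelial and stromal markers lay between -0.29 and 0.23. These 10 relations are given without a p because the mean is over chosen genes, and all points share their libraries and the totals of the columns.

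**Figure D3:**
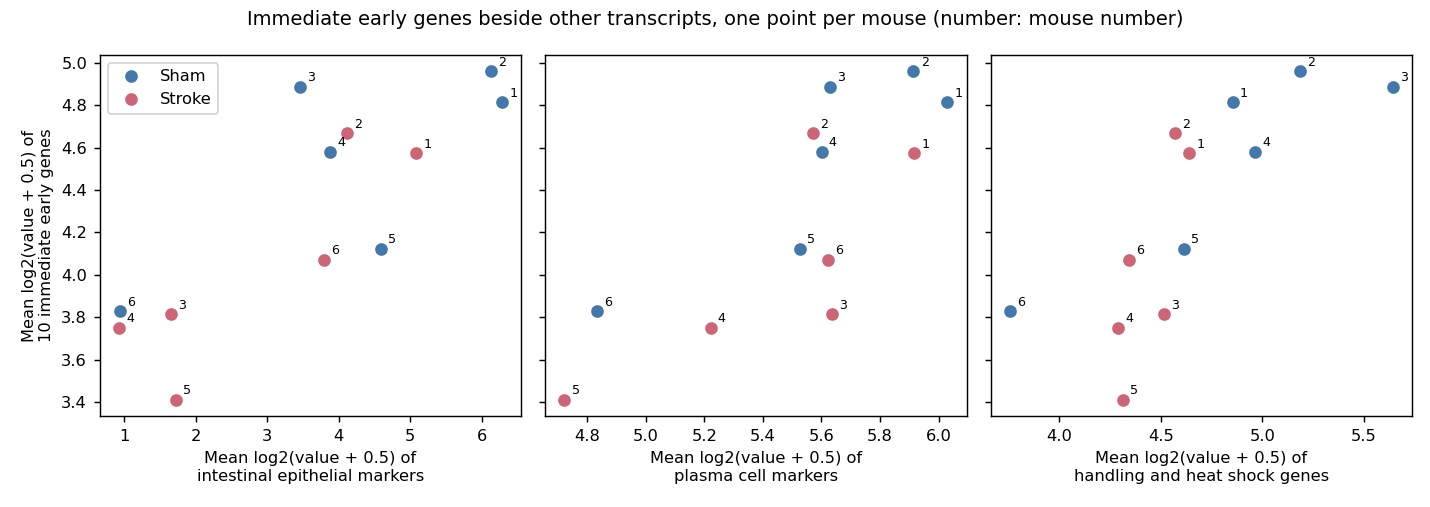
Mean log2(value + 0.5) of the 10 immediate early genes (vertical axis) beside that of the intestinal epithelial markers, plasma cell markers and handling and heat shock genes (horizontal axes), one point per mouse with its number. Sham control 6 and stroke mice 4 and 5, with low epithelial and plasma cell markers, have a mean of 3.83, 3.75 and 3.41 for the immediate early genes. Sham control 2 has 4.96. Not all mice follow this order, since sham control 3, with an epithelial mean of 3.46, has 4.89, and stroke mouse 6, with 3.79, has 4.07.

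Covariation between the genes themselves was examined across the mice of each group, which the choice of genes by group difference did not use. With group means subtracted, 44 of the 45 pairs had a positive Pearson's r, with a median of 0.56, compared with 0.03 over all pairs of tested genes, and r was at least 0.7 in 10 pairs, which is 22.2% beside 6.02% of all pairs. Permutation of the mice within groups (100000 permutations, two-sided, adjusted over the 45 pairs) gave an adjusted p under 0.05 for Pearson's r in 8 pairs, for Spearman's rho in 6 and for both in 4. Leaving out single mice changed the number of 8 to between 3 and 12, with 3 pairs without sham control 4, sham control 6 or stroke mouse 2, 4 without stroke mouse 6 and 5 without sham control 2. It was 3 after rescaling to a common total.

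The closest pair was Egr3 and Rasgef1b, with r = 0.96 and rho = 0.94 over 12 mice (permutation test, adjusted p = 0.0018 and 0.00315). Its r was 0.97 within the sham controls and 0.97 within the stroke mice, and 0.89 without the 2 mice farthest from the median of Egr3. Fos and Jun, partners in the AP-1 dimer, followed each other with r = 0.89 and rho = 0.92 (permutation test, adjusted p = 0.00202 and 0.00405), and r was 0.82 without the 2 farthest mice. For Junb and Klf6 r was 0.90 and rho 0.88 (permutation test, adjusted p = 0.0051 and 0.00405). The fourth pair, Egr3 and Jun, had r = 0.79 and rho = 0.85 (permutation test, adjusted p = 0.0192 and 0.00832). At the other end, Egr1 and Nr4a1 had r = -0.07, and the median r with the other 9 genes was highest in Egr3, at 0.69, and lowest in Nr4a1 and Egr2, at 0.35 each. With the epithelial marker mean regressed out of each gene, the median r of the 45 pairs was 0.32.

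**Figure D4:**
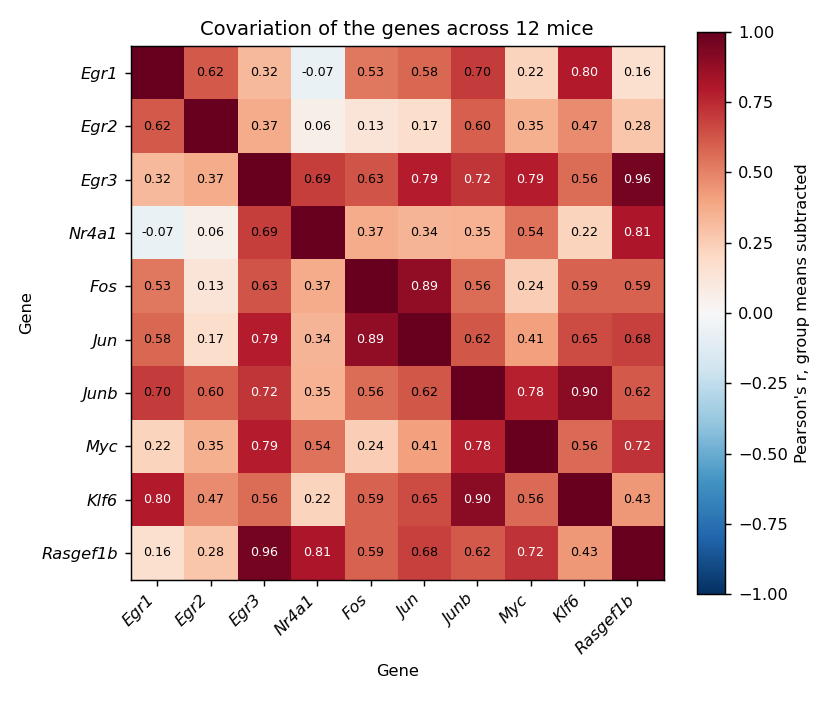
Pearson's r of log2(value + 0.5) between the 10 immediate early genes over 12 mice after subtraction of the group means. Red is positive and blue negative. Egr3 with Rasgef1b (0.96), Junb with Klf6 (0.90) and Fos with Jun (0.89) are the highest values, and Egr1 with Nr4a1 (-0.07) the only one below 0.

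Among all other tested genes, those whose log2 level was most like the mean of the 10, again with group means subtracted and over 12 mice, included Gzma, a granzyme of cytotoxic lymphocytes, at r = 0.96, Arhgef3, a guanine nucleotide exchange factor, at 0.96, the chemokine Ccl5 at 0.96, and Zfp36l1, which binds AU-rich elements and promotes mRNA decay, at 0.96. The median over all tested genes was 0.15. Their log2 fold changes between stroke and sham were -0.51, -0.32, -0.17 and -0.28.

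Next to the 10 genes, 7 lists of 178 genes were described, called the pathway lists, of which 158 genes passed the filter. They hold genes upstream, beside or downstream of the immediate early genes, and also 12 handling and heat shock genes, which respond to tissue processing. Of these 12, 8 passed the filter. The lists were chosen with earlier results of these data known. In stroke mice 4 of the 158 were higher and 6 lower at an unadjusted p under 0.05 (limma), 2.53% and 3.80% beside 4.42% and 1.69% of all tested genes, or 6.33% in all beside 6.12%, and 0 passed an adjusted p of 0.05, with 0.549 as the smallest. Of the 6 lower genes 1, Hsph1, was a handling and heat shock gene. The median log2 fold change of the 158 genes was -0.06, and no gene of the lists had groups that did not overlap. Without sham control 6 the counts were 5 higher and 30 lower, beside 936 higher and 1162 lower of 12661 genes in the whole table. Handling and heat shock genes made up 6 of these 30. With sham control 6 and stroke mouse 5 both left out 27 genes of the lists were lower, 5 of them handling and heat shock genes, beside 819 of 12792 in the whole table. Without stroke mouse 1 the count was 10, beside 301. With the epithelial markers as a covariate 9 were higher and 3 lower, beside 495 and 125 of 12590 in the whole table.

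Of the factors upstream, the list of RAS and ERK signalling had 1 of 26 tested genes lower at the unadjusted threshold, Rasgrp3, which activates RAS downstream of the B cell receptor, with 141 ± 13.9 in sham and 115 ± 12.4 in stroke (SD, n = 6, log2 fold change -0.30, limma adjusted p = 0.772). Its median was -0.05. The most abundant genes of the list were at -0.03 for the RAS GTPase activating protein Rasal3 and -0.24 for the adaptor Grb2. Of 27 genes of calcium, NFAT and serum response factor signalling, Creb1, the cAMP response factor, passed the unadjusted threshold, with 71.7 ± 5.55 in stroke and 84.2 ± 5.79 in sham (log2 fold change -0.23, limma adjusted p = 0.791), the list's median was -0.04, and the calmodulin gene Calm2 was at 0.06.

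Other immediate early transcription factors had 20 of 27 genes tested and a median of -0.05, with 12 below 0. Egr4, Fosb, Fosl1, Atf3, Nr4a2, Nr4a3 and Nfil3 did not reach 1 in every mouse. With all 12 mice, Klf10, a zinc finger factor induced by TGF-beta, was the only one past the unadjusted threshold. It was higher in stroke mice, at 91.6 ± 28.6 compared with 64.4 ± 6.74 (log2 fold change 0.46, limma adjusted p = 0.748). Without sham control 6, 1 gene of the list was higher and 3 were lower, and without sham control 6 and stroke mouse 5 these counts were 1 and 5. The most abundant gene of the list was Klf13, at 0.09. Among early feedback and mRNA decay genes, with 27 of 30 tested and a median of -0.05, Zfp36l2, a relative of Zfp36l1 that also binds AU-rich elements, was higher and Nab2, a corepressor that binds EGR proteins, was lower at the unadjusted threshold. Zfp36l2 had 22.9 to 87.9 in sham controls and 75.9 to 155 in stroke mice, with means of 52.6 ± 22.4 and 119 ± 31.5 (log2 fold change 1.24, limma adjusted p = 0.549). Nab2 had 26.5 ± 4.59 and 20.1 ± 2.07 (log2 fold change -0.38, limma adjusted p = 0.748). The abundant genes Btg1 and Nfkbia, which restrain proliferation and NF-kB, were at -0.11 and 0.01.

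Downstream, the list of B cell activation surface and secreted genes had 19 of 23 genes tested, 15 of them below 0, and a median of -0.15. Past the unadjusted threshold were Cd83, a surface marker of activated B cells, with 169 ± 45.2 in sham and 110 ± 40.0 in stroke (log2 fold change -0.69, limma adjusted p = 0.791), and Gpr183, the oxysterol receptor that places B cells in the follicle, with 88.3 ± 16.3 and 62.2 ± 13.7 (log2 fold change -0.51, limma adjusted p = 0.748). The survival factor Mcl1 and the receptor Tnfrsf13b, the most abundant of the list, were at -0.36 and -0.12. Of 31 MYC partners and targets, with a median of -0.02, Mxd4, which competes with MYC for its partner MAX, and the nucleolar protein gene Ncl were higher at the unadjusted threshold, with log2 fold changes of 0.32 and 0.34 (limma adjusted p = 0.748 and 0.791), and Npm1 was at 0.07. The handling and heat shock genes, a list of transcripts that respond to tissue processing, had 8 of 12 genes tested, all 8 below 0, and a median of -0.31. One, Hsph1, passed the unadjusted threshold at 32.5 ± 8.89 in stroke compared with 58.9 ± 26.2 in sham (log2 fold change -0.78, limma adjusted p = 0.748), whereas without sham control 6 it was 6 of the 8, with a median of -0.62. The abundant chaperone genes Hsp90ab1 and Hspa8 were at 0.00 and -0.33.

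**Figure D5:**
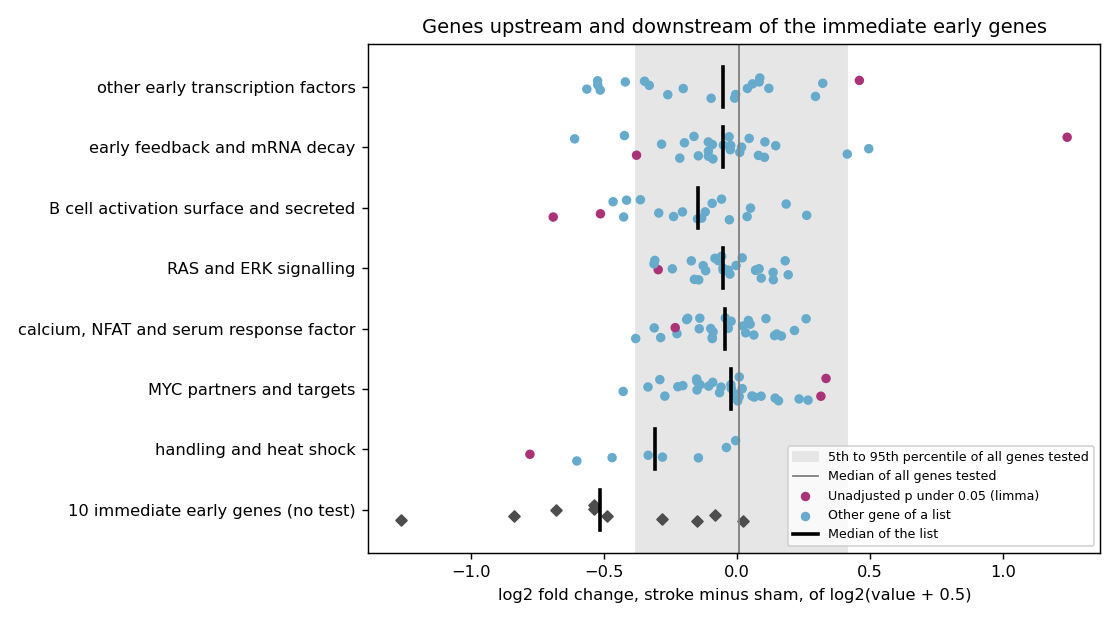
Log2 fold change (stroke minus sham) of the tested genes of the 7 lists, one point per gene, with the list's median as a black bar, the 10 immediate early genes as diamonds, and the 5th to 95th percentile of all genes as a grey band. Purple points have an unadjusted p under 0.05 (limma). The medians of the 7 lists lie between -0.31 and -0.02, and that of the 10 immediate early genes, which were chosen on these data, at -0.51.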

How the data were processed

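Bulk RNA-seq of purified PP B cells was analysed from 6 sham controls and 6 stroke mice. According to the methods and processing notes, the authors trimmed reads with Trimmomatic 0.39, used kallisto 0.48.0 with Ensembl release 102 (GRCm38) to quantify transcripts, and compared groups with sleuth 0.30.0. What the authors deposited is a normalized expression signal, named TPM, for each gene. The analysis was planned for TPM, but the totals differ between mice, so they were handled as a signal on a log scale. No read counts were used, and depth is unknown. All sample columns were used (0 left aside).

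The immediate early genes and all lists, including the marker lists, were chosen with earlier results of these data known. From the table, log2(value + 0.5) was fitted with limma 3.58.1 (R 4.3.3) on group for the 12590 genes at 1 or more in every mouse, with Benjamini-Hochberg adjustment over all of them. The fit was tested on simulated data. Pairs of genes were permuted 100000 times within groups in Python 3.11.15 with NumPy 2.4.6. Named were the 10 genes, up to 4 genes per pathway list with the smallest p among those under 0.05, the 2 most abundant of each pathway list and of the marker lists where these bear on a result, and the 5 genes most like the mean of the 10. A few genes that this rule selects are not reported here. Promoters came from RefSeq (GRCm38.p6) and gene positions and 3′ UTRs (the coding transcript with the longest 3′ UTR of each gene) from GENCODE M21. Proteins were not analysed here. Alternatives were other pseudocounts, filters, scalings, a replicate block, sample weights, an intensity trend, leaving out each mouse, and, added after seeing the data, an epithelial marker covariate and leaving out sham control 6 with stroke mouse 5.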

Additional observations from a re-analysis of the deposited data

Results flagged for a closer look

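In groups of 6 mice, 48 groups of values were checked for a single mouse far from the others, a gap over the range that exceeds Dixon's 95% critical value of 0.625, which chance gives in about 1 in 20 groups. Flags fell on 5 of them. Klf10 was 147 in stroke mouse 5, beside 90.6 in the next highest stroke mouse. Klf6 was 25.8 in stroke mouse 1, beside 17.3 in the next. Myc was 11.1 in stroke mouse 5, beside 30.9 in the next lowest. Nr4a1 was 36.7 in stroke mouse 2, beside 19.9 in the next highest. The summed T cell markers were 508 in sham control 6, beside 232 in the next highest sham control. Thy1 alone was 404 of the 508, and the other 9 markers summed to 105 in that mouse, within the 81.4 to 148 of the other sham controls.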

How the results depend on the processing

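The median log2 fold change of the 10 genes stayed negative in all 24 alternatives, between -0.62 and -0.35 when single mice were left out and at -0.21 with the epithelial marker covariate, which was chosen after seeing the data. Genes below 0 in all 24 were Egr3, Nr4a1, Fos, Jun, Klf6 and Rasgef1b, whereas Junb was so in 23, Egr2 in 22, Myc in 19 and Egr1 in 7. The numbers of all genes at an unadjusted p under 0.05 depended on the setting. Of 557 higher and 213 lower genes, no filter gave 1418 and 350, a common total 348 and 69, sample weights 866 and 703, and quantile normalization 327 lower genes. Leaving out single mice gave 395 to 936 higher and 146 to 1162 lower genes, the highest without sham control 6. The covariate gave 125 lower genes, and leaving out sham control 6 and stroke mouse 5, also chosen after seeing the data, gave 819. For the adjusted p, 0 genes became 1 with a filter on the mean (Gm9406) or without sham control 1 (Ston1, both named after their values were seen), a range of 0 to 1 over single mice. Of the pathway lists, 4 higher genes became 9 with the epithelial covariate and 3 to 5 over single mice, and 6 lower genes became 2 with a common total, 22 with sample weights, 3 with the covariate, 27 without sham control 6 and stroke mouse 5, and 4 to 30 over single mice. The 8 pairs of genes past the adjusted threshold became 3 with a common total, 5 with quantile normalization, 5 with the covariate and 3 to 12 over single mice. Counts of single pathway lists moved by over 1.5 times in 4 to 16 of the 24 alternatives. The cause of these moves was not tested. Both groups carry replicate numbers 1 to 6, whose meaning the labels do not give. Same-numbered mice correlated at 0.22 on average in their deviations, beside -0.04 for sham and stroke mice of different numbers. The value was above 0.1 in 4 of 6 pairs, and 2 of 6 sham controls and 2 of 6 stroke mice correlated best with their own number. The main fit did not use the numbers as pairs, and whether they mark a shared batch was not tested. With the number as a replicate block, 770 genes were higher and 404 lower, and 15 genes of the pathway lists were lower. With depth unknown, no counting interval could be given for low genes such as Egr2.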
